A study of Homo sapiens with 32 samples.

Results

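IL18 and 9 genes of the machinery that processes or releases its product were followed through a series of Caco-2 cultures: IL18BP, CASP1, CASP4, CASP8, PYCARD, NLRP1, NLRP6, GSDMD and GSDMB. They were chosen by name, as the cytokine, its soluble inhibitor, the inflammatory caspases, the inflammasome adaptor and 2 of its sensors, and 2 gasdermins, and make up 10 of the 60107 genes in the table, of which 30677 had at least 1 count. Caco-2 is a line of human colon adenocarcinoma cells that is used as a model of the intestinal epithelium. In the labels' names, 3 lines of it were compared: cl.21, e.v. and WT. The cl.21 cells are Caco-2-HIF1A-null cells, in which an inducible Cas9 and a guide against HIF1A were introduced with lentivirus, and by its name the line is 1 clone. The e.v. cells are the controls with the same Cas9 and an empty vector, and WT cells are Caco-2 cells labelled with no such construct. Each line was grown in 3 ways: in a HoxBan tube, where the epithelial cells grow above bacterial agar, with the anaerobe Faecalibacterium prausnitzii (co-culture), in the same system without bacteria (monoculture), and as conventional 2D culture. There were 3 libraries for each of these 9 groups, except for WT 2D with 4. Another 4 libraries of WT cells stood alone, 2 labelled with stool and YCFA medium with inulin or mucin, and 2 labelled as monoculture with YCFA medium with inulin or mucin. Levels are CPM, the counts of a gene relative to the library size as adjusted by TMM, a scaling on the bulk of genes, and each library is a 3′ tag library, so that a transcript gives tags from its end whatever its length.

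Interleukin-18 is made as an inactive precursor that epithelial cells store. Sensors such as NLRP1 and NLRP6 gather the adaptor ASC, the product of PYCARD, and ASC recruits caspase-1, which cuts the precursor of IL-18 and also cuts gasdermin D, whose freed fragment forms pores in the membrane. Caspase-4 senses lipopolysaccharide in the cytosol without such a scaffold and cuts gasdermin D and IL-18 itself, and caspase-8, the starter of death receptor apoptosis, can cut both gasdermins and cytokine precursors in some settings. IL18BP is a secreted protein that binds mature IL-18 and keeps it from its receptor.

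Libraries held 4144373 to 6686797 counts with a median of 4917010, and 4.49% to 23.6% of them lay in mitochondrially encoded genes. No pair of replicates agreed within sampling noise (chi-square per degree of freedom of 3.81 or more over 30 pairs). The epithelial identity of the cells was clear in every library, with 1437 CPM of EPCAM and 312 CPM of VIL1 on average. The colonocyte genes CDX1 and LGALS4 had only trace counts, and KRT20 averaged 2.45 CPM. Of the markers of other cell types, the 10 for immune cells summed to 2.4 to 11.2 CPM, most of it CD14 (5.75 CPM on average), and PTPRC had 4 counts in all. The 6 for fibroblasts summed to 30.2 to 113 CPM, carried by COL1A1 (28.1 CPM) and PDGFRA (29.8 CPM), while COL1A2 and DCN had 2 and 7 counts in all. Tags of HIF1A come from the end of the transcript and do not show the edit. HIF1A was nevertheless lower in cl.21 than in e.v. cells over the 3 cultures by 0.71 ± 0.11 on the log2 scale (SE, edgeR quasi-likelihood test, adjusted p = 5.12e-05). Against WT cells it was lower in cl.21 by 0.30 (adjusted p = 0.0511, not called) and higher in e.v. by 0.40 (adjusted p = 0.00923). By culture, cl.21 against WT was -0.09 in co-culture, -0.07 in monoculture and -0.75 in 2D. The HIF1 target PGK1, a glycolytic kinase, was at 204 to 411 CPM in cl.21 cells against 368 to 561 CPM in e.v. cells, without overlap within any culture. Its WT means, 639, 681 and 823 CPM in co-culture, monoculture and 2D, lay above those of e.v. cells, at 452, 470 and 530 CPM.

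Of the 10 members, 4 were expressed in all 9 groups, with a mean of at least 1 CPM in each: CASP8, CASP4, IL18 and GSDMD. CASP8 averaged 104 CPM over the 28 libraries of replicated groups, above 85.6% of the 12849 genes that passed the filter on low counts, and CASP4 averaged 39.3 CPM, above 65.9% of them. IL18 averaged 14.1 CPM and GSDMD 4.61 CPM, above 41.9% and 21.2% of those genes. IL18BP was low, at 1.56 CPM, and above 5.62% of genes. CASP1, GSDMB and NLRP1 left only traces that failed the filter, with 91, 141 and 7 counts over all 32 libraries. PYCARD and NLRP6 had 0 counts in all 32 libraries, which allows a pooled level of up to 0.0186 CPM (3 counts, counting error only). Of the canonical inflammasome route, these libraries thus held tags of the substrates IL18 and GSDMD and a trace of CASP1, and no tag of the adaptor.

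Across the pathway the picture was uneven. Among 99 genes of 10 lists drawn up around the members by role, 44 were expressed, 3 were low, 35 left traces and 17 had no count. Of 13 inflammasome sensors, NLRP2 (48.0 CPM), a member of the family known mainly from the oocyte and early embryo, and CARD8 (8.05 CPM), which can activate caspase-1 without ASC, were expressed, and IFI16, a sensor of DNA, was low at 1.27 CPM. NLRP3, NLRC4 and NAIP had 8, 3 and 5 counts in all, and AIM2 and MEFV had none. The receptor of IL-18 was barely seen, with 2 counts of IL18R1 and 0 of IL18RAP, whereas IL1R1, the receptor of interleukin-1, stood at 13.8 CPM and its inhibitory relative SIGIRR at 15.7 CPM. Of the gasdermins, GSDME was expressed at 21.3 CPM beside GSDMD, and GSDMA and GSDMC had 1 and 2 counts. NINJ1, whose product breaks the membrane after gasdermin pores have formed, stood at 19.8 CPM. Necroptosis was represented by MLKL (5.51 CPM) with a single count of its kinase RIPK3 and none of ZBP1.

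**Figure D1:**
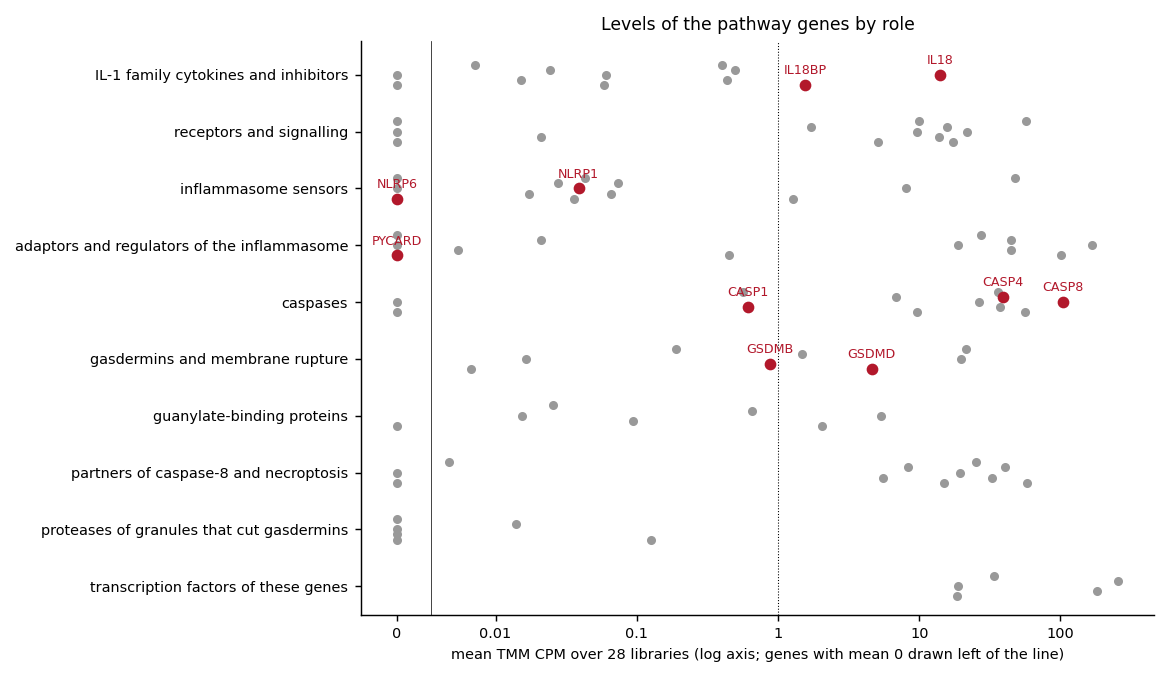
Mean level (TMM CPM over 28 libraries, log axis) of the 99 pathway genes, 1 point per gene, by list, with the 10 members in red and named, genes at a mean of 0 left of the solid line and 1 CPM as a dotted line. NLRP6 and PYCARD lie at 0, CASP1 and GSDMB lie below 1 CPM, and CASP8 is the member farthest to the right at 104 CPM.

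PYCARD is a short gene on chromosome 16 (chr16:31201485-31203450, minus strand, GENCODE 29 on GRCh38). Its transcript end overlaps the antisense gene PYCARD-AS1 over 39.2% of the terminal bases, and that gene had 28 counts. Because the gene stood at 0 in every library, its start region is shown with each CG pair, the site of DNA methylation, in capitals (RefSeq window on GRCh38.p14, chr16:31202711-31203010, minus strand, 5′ to 3′). It holds 23 CG pairs against a median of 14 over 35116 such windows, and 35.8% of all windows hold as many. The windows of NLRP6, which also had 0 counts in every library, hold 7 and 8 CG pairs, below that median. Methylation itself was not measured.
PYCARD promoter: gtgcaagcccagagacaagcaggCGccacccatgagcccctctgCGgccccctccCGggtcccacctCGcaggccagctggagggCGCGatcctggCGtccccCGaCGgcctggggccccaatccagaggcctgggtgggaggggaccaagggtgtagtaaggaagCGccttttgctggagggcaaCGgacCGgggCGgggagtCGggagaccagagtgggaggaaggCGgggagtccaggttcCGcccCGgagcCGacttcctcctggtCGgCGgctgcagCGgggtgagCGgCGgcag

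IL18 lies on chromosome 11 (chr11:112143251-112164117, minus strand). The sites of the study's primers for IL18 were found in all 3 coding transcripts of the annotation. The probe was looked up only in the transcript used here. In it the amplicon spans exons 4 and 5 of 6 exons (chr11:112148654-112150121, GRCh38, intron included), 618 bases before the end of its 1147 bases. Tags of the present libraries come from the end, so the 2 assays read different stretches of the same molecule. The amplicon of 133 bases is shown with the forward primer, the probe and the reverse primer site in capitals, since it marks the transcript whose level the text turns on.
IL18 amplicon: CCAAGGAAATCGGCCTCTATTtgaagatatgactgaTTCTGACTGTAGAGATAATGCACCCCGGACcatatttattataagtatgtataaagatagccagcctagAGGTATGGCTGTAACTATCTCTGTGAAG

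IL18 separated the e.v. line from both others. In co-culture its levels were 9.05, 15.0 and 14.2 CPM in cl.21 cells, 30.6, 31.1 and 34.2 CPM in e.v. cells and 17.4, 9.82 and 8.34 CPM in WT cells. All 3 e.v. libraries were higher than every library of the other lines, which overlapped each other. In monoculture the levels were 14.1, 11.8 and 13.3 CPM in cl.21 cells, 31.9, 22.0 and 17.9 CPM in e.v. cells and 8.72, 6.12 and 12.6 CPM in WT cells. In 2D they were 5.94, 10.4 and 3.81 CPM in cl.21 cells, 12.7, 12.8 and 14.2 CPM in e.v. cells and 9.17, 7.1, 4.42 and 6.53 CPM in WT cells. In these cultures too, no e.v. library overlapped a library of the other lines.

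**Figure D2:**
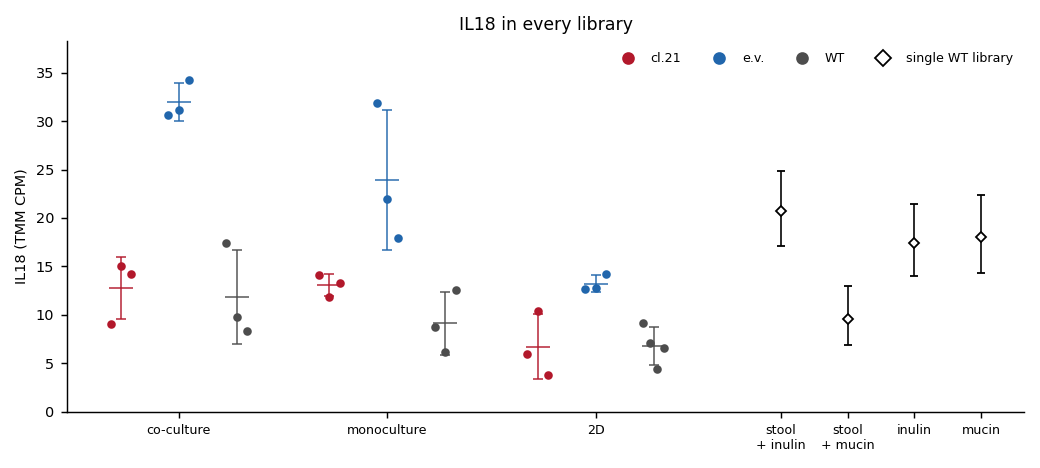
IL18 (TMM CPM) in each of the 32 libraries, by culture and line; points are libraries, bars the mean and SD of 3 or 4 libraries, and diamonds the 4 single WT libraries with their 95% exact binomial interval. In each culture the e.v. points lie above those of cl.21 and WT, and 3 of the single libraries lie above the WT monoculture points.

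Against e.v. cells, IL18 fell in cl.21 cells by 1.05 ± 0.18 on the log2 scale over the mean of the 3 cultures (SE, edgeR quasi-likelihood test, adjusted p = 0.00022). CASP4 was also called in this comparison, so that 2 of the 5 members tested passed, beside 8.75% of all 12849 genes. Taken by culture, the difference of IL18 passed in co-culture (log2 fold change -1.29 ± 0.25, adjusted p = 0.0254), where 1 of 5 members and 0.716% of the 12013 genes tested were called. In monoculture it was -0.86 ± 0.24 (adjusted p = 0.18) and in 2D -0.98 ± 0.32 (adjusted p = 0.197), with no member called beside 0.674% and 1.00% of genes. The call in co-culture was lost without any 1 of the 6 co-culture libraries (adjusted p = 0.0655 to 0.139), and that in 2D was gained without cl.21 library 2 (adjusted p = 0.0495). The difference between cl.21 and e.v. did not itself differ past the threshold between co-culture and monoculture (interaction -0.43 ± 0.35) or between monoculture and 2D (0.12 ± 0.43). For these interactions 0% and 0% of genes passed by edgeR and 0 by DESeq2, and an unadjusted p under 0.05 was reached by 96 and 180 genes.

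Against WT cells, IL18 rose in e.v. cells by 1.25 ± 0.18 on the log2 scale over the 3 cultures (adjusted p = 1.95e-05), the 1 member called beside 14.6% of genes. By culture the log2 fold change was 1.42 ± 0.31 in co-culture (adjusted p = 0.0159, 1.80% of genes called), 1.38 ± 0.31 in monoculture (adjusted p = 0.0246, 1.10% called) and 0.95 ± 0.30 in 2D (adjusted p = 0.136, 1.28% called). The call in monoculture was lost with only the groups compared in the fit (adjusted p = 0.252) and without e.v. library 11 or 15 or WT library 16 or 19 (adjusted p = 0.0517 to 0.143), and that in co-culture without WT library 20 or 28 (adjusted p = 0.0593 and 0.0984). Between cl.21 and WT cells no difference of IL18 was called: the log2 fold change was 0.20 ± 0.18 over the 3 cultures (adjusted p = 0.502), 0.12 ± 0.32 in co-culture, 0.52 ± 0.32 in monoculture and -0.03 ± 0.31 in 2D. CASP4 was the 1 member called in the comparison over the 3 cultures, beside 14.4% of genes, and no member was called by culture, beside 0.926%, 2.28% and 1.46% of genes in co-culture, monoculture and 2D. The comparisons with e.v. and with WT share libraries, and every cl.21 library stems from a single clone, so that the edit and other traits of the clone cannot be told apart. In cl.21 against e.v. cells, traits of the e.v. line, which itself differed from WT cells in IL18, likewise cannot be told apart from the edit.

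Interferon-stimulated genes moved with IL18 between the lines. The list of these genes was drawn up with earlier results of these data known. Of 26 such genes tested from a list of 35, 20 fell and 0 rose in cl.21 against e.v. cells over the 3 cultures. The median log2 fold change was -1.19, against 0.01 over all genes, of which 8.75% were called. In e.v. against WT cells, 24 rose and 0 fell (median 1.59, against -0.02), beside 14.6% of all genes called. In cl.21 against WT cells 4 rose and 3 fell (median 0.39), beside 14.4% of all genes called. The summed level of the list was 662 to 694 CPM in cl.21 cells, 926 to 2334 CPM in e.v. cells and 463 to 702 CPM in WT cells in co-culture. Among e.v. libraries of one culture the summed level and IL18 were not in the same order: in monoculture the library with the highest IL18 (31.9 CPM) had the lowest sum, at 781 CPM. Some marker genes also differed between the lines over the 3 cultures, beside the same shares of all genes called in each comparison. Of 8 epithelial markers tested from 10, CDH1 and KRT19 fell in cl.21 against e.v. cells, by 0.35 and 0.65 on the log2 scale (adjusted p = 0.0233 and 0.000314), and the summed level of the list was 3002 to 4892 CPM in cl.21 and 3839 to 6377 CPM in e.v. cells. Of 3 fibroblast markers tested from 6, COL3A1 and PDGFRA rose in e.v. against WT cells, by 1.70 and 0.87 (adjusted p = 0.00885 and 0.00618), and the sums were 50.4 to 113 CPM in e.v. and 30.2 to 84.5 CPM in WT cells. CDX2, a transcription factor of intestinal identity, fell by 0.57 in the same comparison (adjusted p = 0.00569). In cl.21 against WT cells COL3A1 rose by 1.91 (adjusted p = 0.00277), and of the epithelial markers KRT20 fell by 2.08 (adjusted p = 0.0054), KRT19 by 0.49 and CDH1 by 0.34. The part of these genes in the differences of IL18 was not tested.

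**Figure D3:**
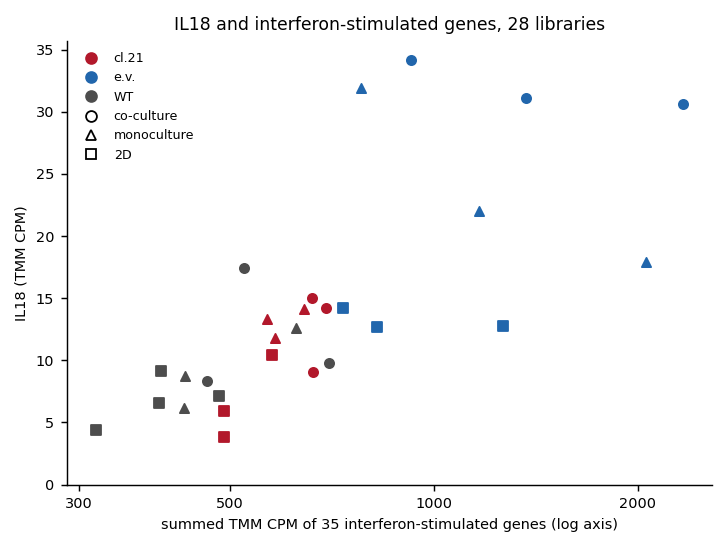
IL18 (TMM CPM) against the summed level of 35 interferon-stimulated genes (TMM CPM, log axis), 1 point per library of the 28 in replicated groups; colour gives the line and shape the culture. All 9 e.v. libraries lie at a sum of 735 CPM or more and the others at 702 CPM or less.

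IL18 was higher in the HoxBan tube without bacteria than in 2D culture. Over the mean of the 3 lines it rose in monoculture against 2D by 0.74 ± 0.18 on the log2 scale (adjusted p = 0.00144), and it was 1 of 3 members called beside 44.6% of all genes. By line, the log2 fold change was 0.96 ± 0.32 in cl.21 cells (adjusted p = 0.033, 20.1% of genes called), 0.84 ± 0.30 in e.v. cells (adjusted p = 0.0455, 21.6% called) and 0.41 ± 0.31 in WT cells (adjusted p = 0.409, 14.8% called). Both calls by line were fragile: that in e.v. cells was lost in 14 of 28 fits without 1 library, and that in cl.21 cells in 4. No library of cl.21 or e.v. monoculture overlapped its own line in 2D, and those of WT did. The mitochondrial share of counts was 6.36% to 23.3% in monoculture and 4.49% to 17.1% in 2D, and the mean over the lines passed with that share as a covariate, as in all 33 alternatives (adjusted p = 4.08e-05 to 0.00583). Of the markers, CDX2 fell in monoculture by 0.78 (adjusted p = 4.25e-05), as 1 of 8 epithelial markers tested. COL1A1 rose by 0.41 and PDGFRA fell by 0.54 among the 3 fibroblast markers tested (adjusted p = 0.03 and 0.0394), and CD14 fell by 0.54 as 1 of 2 immune markers tested (adjusted p = 0.0297). Their part in the result was not tested. A larger share of cells with IL18 and more IL18 RNA per cell cannot be told apart in such bulk libraries, here or in any comparison.

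Between co-culture with F. prausnitzii and monoculture no difference of IL18 was called, and the libraries of both overlapped in every line. The log2 fold change of co-culture against monoculture was 0.43 ± 0.24 in e.v. cells (adjusted p = 0.998), -0.003 ± 0.25 in cl.21 cells (adjusted p = 0.999) and 0.38 ± 0.32 in WT cells (adjusted p = 1), and over the 3 lines 0.27 ± 0.18 (adjusted p = 0.456). No member and none of the 47 pathway genes tested was called over the 3 lines, where 1.99% of all genes were. By line, 0% of genes passed in e.v., cl.21 and WT cells by edgeR and 0 genes by DESeq2, and 439, 545 and 555 genes had an unadjusted p under 0.05. By mean level the order was e.v. co-culture (31.9 ± 1.93 CPM, SD, n = 3), e.v. monoculture (23.9 ± 7.19), e.v. 2D (13.2 ± 0.827), cl.21 monoculture (13.1 ± 1.19), cl.21 co-culture (12.7 ± 3.21), WT co-culture (11.8 ± 4.84), WT monoculture (9.16 ± 3.27), WT 2D (6.81 ± 1.95, n = 4) and cl.21 2D (6.72 ± 3.38). All neighbours in this order overlapped in their libraries, except for e.v. monoculture and e.v. 2D.

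The single WT libraries allow no test. IL18 stood at 20.7 CPM in the library with stool and inulin (95% exact binomial interval 17.1 to 24.9, 115 counts) and at 9.62 CPM in that with stool and mucin (6.9 to 13.0, 41 counts). The medium libraries without stool held 17.4 CPM with inulin (14.0 to 21.4, 90 counts) and 18.0 CPM with mucin (14.3 to 22.4, 80 counts). WT monoculture ranged over 6.12 to 12.6 CPM, so 3 of the 4 single libraries lay above it, and the intervals of the libraries with stool and inulin and with stool and mucin did not overlap. CASP4 lay below the WT monoculture range of 38.9 to 60.3 CPM in all 4, at 31.9 and 31.7 CPM with stool and at 30.1 and 28.4 CPM without. CASP8 lay within its WT monoculture range of 51.3 to 136 CPM in all 4, at 74.7 to 107 CPM. GSDMD was at 2.93 to 4.63 CPM in the single libraries against 3.53 to 4.28 CPM in WT monoculture, and IL18BP at 1.17 to 2.48 CPM against 0.706 to 1.43 CPM. The intervals cover counting error only and hold no spread between cultures.

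The 5 genes whose level was most like that of IL18 over the 28 libraries, among 9948 genes with a mean of at least 5 CPM, were CTNNB1, the gene of β-catenin (Spearman's rho 0.88), IFITM3, an interferon-induced barrier to virus entry (0.87), COTL1, which binds actin (0.86), DYRK4, a kinase (0.85), and PLSCR1, an interferon-induced scramblase (0.84). Pearson's r over the same libraries kept CTNNB1 and COTL1 among the 5. The libraries share lines and cultures, so these values describe a shared pattern of groups. IFITM3 had the contrast of IL18 at a larger size, with means of 33.9, 125 and 32.0 CPM in cl.21, e.v. and WT co-culture. The rho of IL18 was 0.35 with CASP4, 0.28 with CASP8 and 0.56 with HIF1A, against a median of 0 over all genes compared and 0.57 over 17 interferon-stimulated genes.

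CASP4 (chr11:104942866-104969436, minus strand) followed another pattern than IL18, in which cl.21 stood apart from both other lines. In co-culture it was at 24.5, 39.0 and 41.3 CPM in cl.21 cells, 43.0, 47.9 and 60.6 CPM in e.v. cells and 50.9, 48.8 and 51.2 CPM in WT cells. In monoculture it was at 31.2, 33.8 and 25.5 CPM in cl.21 cells, 54.3, 44.5 and 36.3 CPM in e.v. cells and 43.6, 60.3 and 38.9 CPM in WT cells. In 2D it was at 22.2, 30.2 and 24.1 CPM in cl.21 cells, 40.8, 26.5 and 32.9 CPM in e.v. cells and 36.5, 30.3, 41.8 and 40.2 CPM in WT cells. The cl.21 libraries lay below all e.v. and WT libraries in co-culture and monoculture, and in 2D they lay below WT and overlapped e.v.

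Over the 3 cultures CASP4 fell in cl.21 cells by 0.495 ± 0.12 on the log2 scale against e.v. cells (adjusted p = 0.00917) and by 0.57 ± 0.12 against WT cells (adjusted p = 0.00171), and both calls held in all 33 alternatives (adjusted p = 0.00215 to 0.0296 and 0.000177 to 0.00554). Within a culture the log2 fold changes of cl.21 against e.v. were -0.51, -0.58 and -0.40 in co-culture, monoculture and 2D, and none passed (adjusted p = 0.492 to 0.642). Between e.v. and WT cells it was -0.08 ± 0.12 (adjusted p = 0.723). CASP4 rose in monoculture against 2D over the 3 lines by 0.33 ± 0.12 (adjusted p = 0.0257), a call lost with no filter on low counts (adjusted p = 0.058) and without cl.21 library 1 or 7, e.v. library 11 or 26 or WT library 19 (adjusted p = 0.0502 to 0.0777).

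CASP4 was lower in the HIF1A-null line than in both others. Start regions were searched on both strands for the core of the hypoxia response element, ACGTG or GCGTG. A core also lay in windows of CASP8, IL18BP and NLRP6, and none lay in that of PYCARD. No comparison called CASP8 or IL18BP, and NLRP6 had no count. Whether HIF1 acts on CASP4 was not tested. The CASP4 window is shown (RefSeq window on GRCh38.p14, chr11:104968525-104968824, minus strand, 5′ to 3′). ACGTG occurred once, on the opposite strand and thus printed as CACGT in capitals, and GCGTG did not occur. Of all windows of this length, 21.4% hold ACGTG and 36.5% hold GCGTG. The interferon motif TTCNNNGAA, held by 7.66% of windows, and the core of the interferon-stimulated response element, GAAA repeated after 2 further bases and held by 3.57% of windows, did not occur in it. Windows of 5 of the 10 members were used, and none was used here for IL18, GSDMD, CASP1, NLRP1 or GSDMB.
CASP4 promoter: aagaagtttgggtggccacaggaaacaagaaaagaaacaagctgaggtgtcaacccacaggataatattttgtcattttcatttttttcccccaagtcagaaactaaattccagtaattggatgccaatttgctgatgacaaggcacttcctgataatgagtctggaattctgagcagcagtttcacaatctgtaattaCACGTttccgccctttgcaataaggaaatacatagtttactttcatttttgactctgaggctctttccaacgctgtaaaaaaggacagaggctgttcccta

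**Figure D4:**
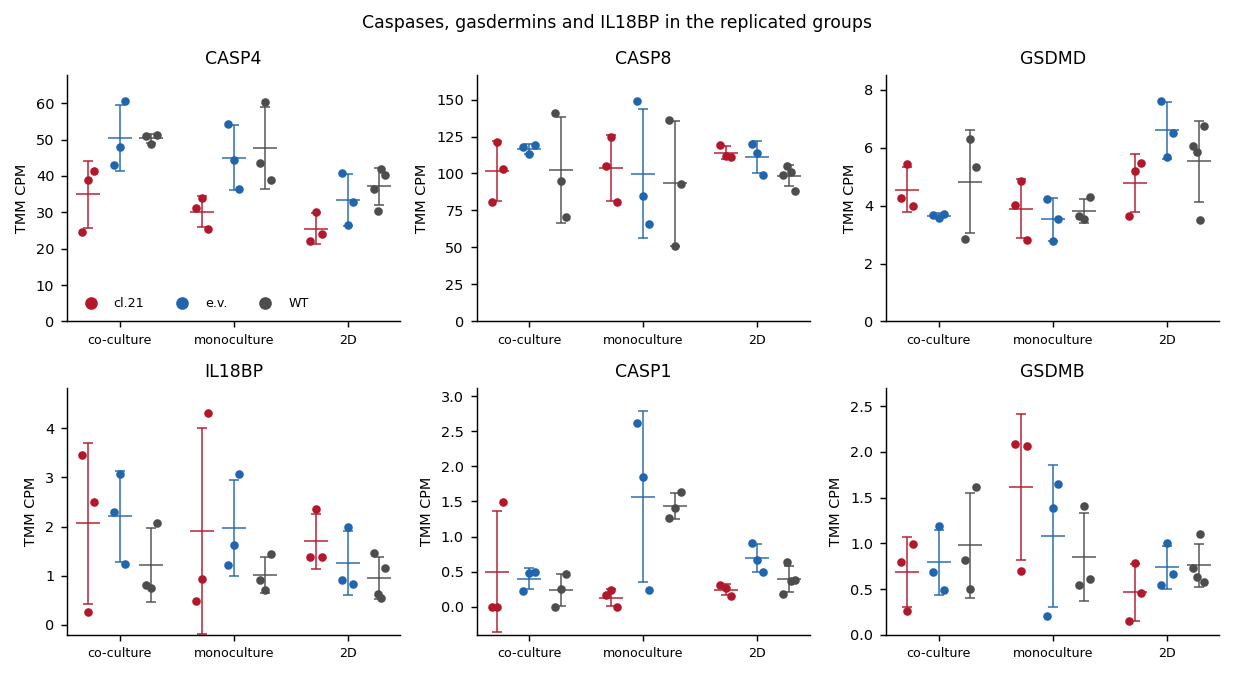
Levels (TMM CPM) of CASP4, CASP8, GSDMD, IL18BP, CASP1 and GSDMB in the libraries of the 9 replicated groups; points are libraries and bars the mean and SD of 3 or 4 libraries. CASP4 in cl.21 lies below the other lines in co-culture and monoculture, GSDMD has its highest mean in 2D e.v. cells (5.67 to 7.61 CPM), and CASP1 is near 0 in the cl.21 monoculture libraries.

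CASP8 (chr2:201233443-201287711, plus strand) had the highest level of the members in tags, which carry no length effect, and no comparison called it. Its group means lay between 93.4 ± 42.5 CPM in WT monoculture and 117 ± 3.06 CPM in e.v. co-culture (SD, n = 3 each). The libraries spread widely in WT monoculture, with 136, 51.3 and 92.7 CPM, whereas those of e.v. co-culture lay at 113 to 119 CPM and the 2D libraries at 111 to 119 CPM in cl.21, 99.3 to 120.0 CPM in e.v. and 88.4 to 105 CPM in WT cells. Over the 3 cultures or lines its log2 fold changes were -0.04 ± 0.16 for cl.21 against e.v., 0.15 ± 0.15 for e.v. against WT, -0.13 ± 0.15 for monoculture against 2D and 0.13 ± 0.16 for co-culture against monoculture.

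Of 8 partners of caspase-8 tested from a list of 11, 3 were called in monoculture against 2D over the 3 lines, beside 44.6% of all genes, and 1 each in cl.21 against e.v. and in cl.21 against WT cells, beside 8.75% and 14.4%. FADD, the adaptor that brings caspase-8 to death receptors, fell in monoculture against 2D by 1.22 on the log2 scale over the 3 lines (adjusted p = 1.01e-09) and in each line on its own, by 1.10 in cl.21, 1.22 in e.v. and 1.34 in WT cells. The kinase RIPK1 fell by 0.78 (adjusted p = 8.04e-05) and the adaptor TRADD by 0.54 (adjusted p = 0.00185) over the 3 lines. CFLAR, the gene of c-FLIP, which inhibits caspase-8, fell in cl.21 cells by 0.52 against e.v. cells (adjusted p = 2.76e-05) and by 0.37 against WT cells (adjusted p = 0.00101), and was at 58.2 CPM on average. The lists were drawn up with earlier results of these data known.

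GSDMD (chr8:143553207-143563062, plus strand) moved against IL18 between monoculture and 2D over the 3 lines. In monoculture it was at 4.02, 4.86 and 2.81 CPM in cl.21 cells, 4.24, 2.78 and 3.54 CPM in e.v. cells and 3.63, 3.53 and 4.28 CPM in WT cells. In 2D it was at 3.65, 5.21 and 5.48 CPM in cl.21 cells, 7.61, 5.67 and 6.51 CPM in e.v. cells and 6.05, 5.84, 3.5 and 6.73 CPM in WT cells. The groups of e.v. cells did not overlap and those of the other lines did. Over the 3 lines GSDMD fell in monoculture by 0.59 ± 0.17 on the log2 scale (adjusted p = 0.00475), and in all 33 alternatives the call held (adjusted p = 0.00172 to 0.0188).

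By line, the fall of GSDMD passed in e.v. cells (log2 fold change -0.91 ± 0.29, adjusted p = 0.0256) and not in cl.21 (-0.31 ± 0.29) or WT cells (-0.55 ± 0.28), and the difference between cl.21 and e.v. in this response was 0.60 ± 0.41 (adjusted p = 1). The call in e.v. cells was lost with no filter (adjusted p = 0.106), with only the groups compared (adjusted p = 0.0559) and without e.v. library 15, 23, 25 or 32 (adjusted p = 0.0564 to 0.123). No difference between lines was called for GSDMD, with log2 fold changes over the 3 cultures of 0.002 ± 0.15 for cl.21 against e.v. and -0.08 ± 0.17 for e.v. against WT. The mean for cl.21 against e.v. averages 0.35 ± 0.32 in co-culture (adjusted p = 0.884), 0.14 ± 0.32 in monoculture and -0.47 ± 0.27 in 2D (adjusted p = 0.703). In co-culture GSDMD was at 4.26, 5.42 and 3.98 CPM in cl.21 cells, 3.68, 3.56 and 3.71 CPM in e.v. cells and 2.86, 6.29 and 5.33 CPM in WT cells. All cl.21 libraries were above e.v. in co-culture and below e.v. in 2D. IRF2, a transcription factor known to drive GSDMD, fell in the same comparison of monoculture with 2D by 0.82 (adjusted p = 5.41e-06), and IRF1, its interferon-induced relative, rose by 1.35 (adjusted p = 5.05e-07). GSDME rose by 0.39 (adjusted p = 0.00498). In that comparison 44.6% of all genes were called, and the part of IRF2 or IRF1 in the fall of GSDMD was not tested.

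**Figure D5:**
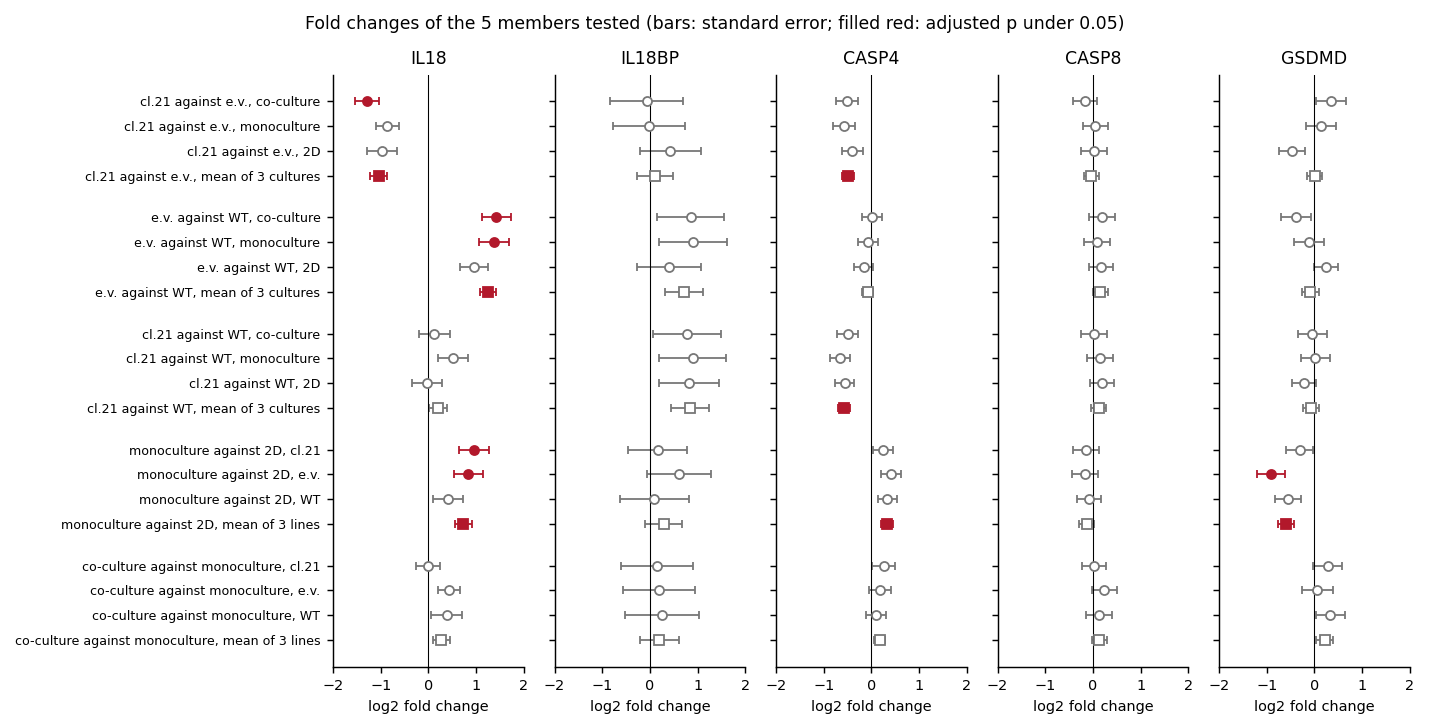
Log2 fold changes with their standard errors for the 5 members tested, by comparison; squares are means over 3 cultures or 3 lines, circles single comparisons, and filled red marks an adjusted p under 0.05. IL18 carries the calls of e.v. against WT, CASP4 that of cl.21 against WT, and CASP8 and IL18BP have none.

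The members at trace level are described by their counts. CASP1 (chr11:105025443-105035250, minus strand) had 1, 1 and 0 counts in cl.21 monoculture, 13, 8 and 1 counts in e.v. monoculture and 7, 6 and 8 counts in WT monoculture. In 2D the libraries held 2, 2 and 1 counts in cl.21, 5, 4 and 3 in e.v. and 1, 4, 2 and 2 in WT cells, and in co-culture all libraries held 0 to 2 except for 1 of cl.21 with 6. CASP1 failed the filter and was not tested, and with no filter edgeR called it lower in cl.21 monoculture against e.v. (log2 fold change -3.39, adjusted p = 0.0305) and against WT (-3.27, adjusted p = 0.0223). DESeq2 did not call the first (adjusted p = 0.481) and gave no adjusted p for the second. Of the 50-base words in the last 500 bases of its coding transcripts, 5.98% also occur in CARD16, a neighbouring decoy of caspase-1 with 65 counts of its own, so that reads could be shared between the genes.

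GSDMB (chr17:39904595-39919854, minus strand) had 1 to 13 counts in every library. The highest were 13 and 11 counts in cl.21 monoculture, where the remaining library had 3, against 1, 6 and 3 counts in cl.21 2D. GSDMB missed the filter on low counts and was not tested. Neither edgeR with no filter nor DESeq2 called it in cl.21 monoculture against 2D (adjusted p = 0.0785 to 0.0829). It passed the filter in 22 edgeR fits without 1 library, where a smaller group lowers the number of libraries the filter asks for. The cl.21 monoculture libraries with 13 and 11 counts met it there. Of these fits, 20 called GSDMB higher (log2 fold change 1.76 to 2.34, adjusted p = 0.016 to 0.0443). As it was let in through the group in which it is called higher, and the fits share most libraries, no conclusion is drawn from these calls. NLRP1 (chr17:5499427-5619424, minus strand) had 7 counts in 5 libraries, no more than 2 in any. NLRP6 (chr11:278365-285359, plus strand), the sensor linked to epithelial IL-18 in the mouse gut, had none.

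IL18BP (chr11:71998541-72005715, plus strand) was tested but gave few counts, 1 to 23 per library. Its means were 2.07 ± 1.64 CPM in cl.21, 2.21 ± 0.927 CPM in e.v. and 1.22 ± 0.75 CPM in WT co-culture (SD, n = 3 each), and in cl.21 monoculture the libraries held 0.482, 0.925 and 4.31 CPM. Its log2 fold changes over the 3 cultures were 0.11 ± 0.38 for cl.21 against e.v., 0.72 ± 0.40 for e.v. against WT (adjusted p = 0.25) and 0.83 ± 0.40 for cl.21 against WT (adjusted p = 0.166), none past the threshold, and standard errors of this size leave a wide range of changes undetectable at this depth. The end of IL18BP overlaps NUMA1 on the opposite strand over 16.0% of its terminal bases, and NUMA1 had 7835 counts against 254 of IL18BP, so that without the strand of the counting some of its tags could belong to NUMA1.

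Among the other pathway genes tested, 42 without the members, 7 rose and 10 fell in monoculture against 2D over the 3 lines, where 44.6% of all genes were called (median log2 fold change of all 47 tested -0.08, against -0.01 over all genes). Those that fell included MYD88 and IRAK1, which carry the signal of interleukin-1 family receptors, by 0.54 each (adjusted p = 0.00269 and 0.000164), and DPP9, an inhibitor of NLRP1 and CARD8, by 0.55 (adjusted p = 0.000107). In cl.21 against e.v. cells over the 3 cultures 1 rose and 6 fell, beside 8.75% of all genes called (median -0.05, against 0.01). TXNIP, a thioredoxin inhibitor that can bind NLRP3, fell the most of these, by 1.61 (adjusted p = 5.02e-05), and fell by 1.35 in cl.21 against WT cells (adjusted p = 0.000294). GBP2, an interferon-induced GTPase that coats bacteria, fell by 1.16 (adjusted p = 0.00456).

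In e.v. against WT cells over the 3 cultures, 8 of these 42 genes rose and 2 fell, beside 14.6% of all genes called (median 0.07, against -0.02). IFI16 rose by 2.40 (adjusted p = 0.000146), GBP1 by 0.87 (adjusted p = 0.00473), GBP2 by 0.97 (adjusted p = 0.0109) and IL1R1 by 0.74 (adjusted p = 0.0042). In cl.21 against WT cells 4 rose and 4 fell, beside 14.4% of all genes called (median -0.04, against -0.01). IRF1 rose by 0.72 (adjusted p = 0.00449), and CASP2 and CASP6, of the apoptotic caspases, fell by 0.48 and 0.34 (adjusted p = 0.000618 and 0.0145). Of the gasdermins and sensors tested, IFI16 alone was called between lines over the 3 cultures.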

How the data were processed

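The authors made QuantSeq 3′ mRNA libraries from total RNA of Caco-2 cells and deposited 1 table of raw counts per Ensembl gene for all 32 libraries. Per the labels' processing notes the genome build was GRCh38; which aligner, counting tool, annotation and strand setting were used is not given in the sources used here. The table holds 60107 rows, of which 56104 took a symbol from a table of Ensembl identifiers and 427 from GENCODE 29, and rows left unnamed held 0.0679% of counts. Groups were taken from the labels. Replicates carry library numbers, and as the labels do not say whether they were separate cultures, p-values measure the spread between these libraries only.

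Levels are plain CPM on library sizes scaled by TMM over all 32 libraries (edgeR 4.0.16, limma 3.58.1, R 4.3.3). Tests were edgeR's quasi-likelihood F test, two-sided, on the counts as deposited after edgeR's filter on low counts, in a first fit (cl.21 and e.v. in HoxBan; 12013 genes in 12 libraries, leaving 8 residual degrees of freedom) for comparisons of cl.21 with e.v. in HoxBan and of co-culture with monoculture in these lines, and in a second fit (the 9 replicated groups; 12849 genes in 28 libraries, leaving 19) for all others. P-values were adjusted by Benjamini-Hochberg over all genes tested, with 0.05 as the threshold, and the standard error is the size of the log2 fold change over the square root of F. The fits were also run on simulated counts, and the outcome is not reported here. Single libraries stayed out of the tests, their shares have a 95% Clopper-Pearson interval, and a count of 0 is set against a floor of 3 counts; without molecular identifiers both cover counting error only.

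All 10 members are named with their values. A gene was called expressed at a mean of at least 1 CPM in each of the 9 replicated groups, low if it passed the filter under that, and trace if it had counts but failed the filter. From the lists, genes past the test in a comparison, up to 4 others of the highest level and defining genes without counts were named, and HIF1A and PGK1 served as a check of the edited line. Some genes of the lists are not reported here by name. Genes like IL18 were the 5 with the highest Spearman correlation of log2 CPM (prior count of 2). The members and lists were chosen with earlier results of these data known. Alternatives were DESeq2, edgeR's exact test, no filter, upper-quartile factors, other sets of libraries, the mitochondrial share as covariate and leaving out each library. Sequences and windows are from RefSeq (GRCh38.p14), and overlaps and transcripts from GENCODE 29.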

Additional observations from a re-analysis of the deposited data

Results flagged for a closer look

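IL18 stood above all 3 WT monoculture libraries (6.12 to 12.6 CPM) in 3 of the 4 single WT libraries, with the lower limit of the 95% exact binomial interval above them: 17.4 CPM with inulin, 18.0 CPM with mucin and 20.7 CPM with stool and inulin. The 4 single libraries enter no comparison, and with 1 library each these differences were not tested. In the only group with 4 libraries, WT 2D, no member had a library far from the rest, and no interaction was past the threshold for any member tested.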

How the results depend on the processing

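Calls over the mean of 3 cultures or 3 lines were the firmest. Those of IL18 and CASP4 between lines and of IL18 and GSDMD between monoculture and 2D were kept in all 33 alternatives, while single comparisons rest on 3 or 4 libraries a group. For the 5 members tested, 3317 fold changes were recomputed: 43 lost their call, 6 gained one and 0 called ones reversed, and 118 uncalled ones changed sign. Of 180 recomputed group means, 18 moved by over 1 SD, 6 of them with upper-quartile factors. With no filter on low counts, 1 member passed in monoculture for cl.21 against e.v. (0 before) and for cl.21 against WT (0 before), CASP1 each time, 1 for e.v. against WT in 2D (IL18, adjusted p = 0.0195, 0 before) and 1 for monoculture against 2D in e.v. (2 before). With the mitochondrial share as covariate, 2 passed for cl.21 against e.v. in monoculture (IL18, adjusted p = 0.0158, and CASP4, adjusted p = 0.019) and 1 for e.v. against WT in 2D (IL18, adjusted p = 0.0253), and CASP4 gained a call for monoculture against 2D in e.v. cells (adjusted p = 0.0379). With only the groups compared, 0 passed for e.v. against WT in monoculture (1 before) and 1 for monoculture against 2D in e.v. cells. Leaving out each library in turn, the number of members past the test was 0 to 1 for cl.21 against e.v. in co-culture and in 2D and for e.v. against WT in monoculture and in co-culture, 0 to 2 for monoculture against 2D in e.v. and in cl.21 cells and 2 to 4 over the 3 lines. GSDMB, which passed the filter in 22 of these fits and not with all libraries, is among them in cl.21 cells and over the 3 lines. It entered these fits through its 2 highest libraries, both of cl.21 monoculture, so its calls add no support. In cl.21 cells IL18 lost its call for monoculture against 2D without library 1, 4, 24 or 31 (adjusted p = 0.0858 to 0.169). The depth of 4144373 to 6686797 counts limits IL18BP, CASP1, GSDMB and NLRP1, with at most 23 counts a library. No paired analysis was run, since each library has its own number and the labels name no pairs. Whether cultures of different groups were matched is therefore not known.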
